A study of Drosophila melanogaster with 18 samples.

Results

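The 141 transcripts described here are the expressed long noncoding RNAs (lncRNAs) of S2R+ cells, an adherent Drosophila line derived from embryos with features of blood cells. They are the genes whose FlyBase symbol begins with lncRNA: (left off the names below), apart from roX1, roX2 and Hsromega, and they were selected on measured level: the mean had to reach 1 CPM (the count scaled to the library's total count) in at least 1 of 6 groups. These 141 were 7.86% of the 1794 lncRNA genes counted after those 3 were set aside, and 826 of the 1794 had 0 counts in all 18 libraries. Of 13685 protein-coding genes, 7240 (52.9%) reached the same level. Since the group means chose the members, their presence above 1 CPM is a description and no result.

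Polyadenylated RNA was sequenced from 6 groups of 3 libraries. All cells received double-stranded RNA (10 µg, 3 treatments over 6 days) to trigger RNA interference against the transcript of the same sequence. The knockdowns were Ime4_dMettl14, Fl2d, Vir, Nito and CG7358, and the Control cells received double-stranded RNA against LacZ, a bacterial gene. Ime4 and dMettl14, whose genes are called Mettl3 and Mettl14 in the annotation, form the methyltransferase core of the complex that places N6-methyladenosine on RNA, and Fl2d, Vir, Nito and CG7358 (annotated as Flacc) are its accessory proteins. Separate cultures for the 3 libraries are not stated in the labels, so p-values measure the spread between libraries, which may be technical. No group had its target restored, and loss of the target cannot be told apart from unintended action of the double-stranded RNA.

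A lncRNA is a transcript with no long reading frame. Some are made for a product within them: a miRNA host is a primary transcript from which the nuclear Microprocessor, made of the nuclease Drosha and its partner Pasha, cuts the hairpin that becomes a microRNA, and a snoRNA host carries small nucleolar RNAs in its introns. Others overlap a protein-coding gene on either strand or lie between genes, and for most of the Drosophila lncRNAs with a CR number no function is established. Levels here are of polyadenylated RNA and cannot tell a change in transcription from a change in stability.

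Library totals were 15743484 to 18100792 counts. Each targeted transcript was lowest in its own group, at 10.5% (Mettl3) to 28.4% (Flacc) of the Control mean. Genes that mark plasmatocytes, the main fly blood cell, were present: 10 of 11 were at 1 CPM or more in Control, with a summed level of 781 to 794 CPM in Nito against 976 to 1010 CPM in Control. They did not move together. The most abundant, crq and srp, averaged 353 and 161 CPM in Nito, against 435 and 251 CPM in Control. The means of Sr-CI, Pxn, Hml and Ppn were also lower in Nito, and those of NimC1, eater, He, vkg and Col4a1 were higher. The summed level of 6 neuron markers was 44.8 to 52.2 CPM in Nito against 32.6 to 36.9 CPM in Control, and elav, the most abundant of them, averaged 31.9 CPM in Nito and 25.4 CPM in Control. Crystal cell markers summed to 2.57 to 3.48 CPM in Nito against 4.79 to 5.30 CPM in Control, lamellocyte markers to 39.2 to 41.1 against 37.5 to 40.4 CPM, and germline markers to 195 to 200.1 against 227 to 246 CPM. The lamellocyte sum was almost all PPO3. In the germline sum aub was lower in Nito (177 against 224 CPM) and bam higher (20.5 against 15.2 CPM). The 3 muscle and 3 fat body markers summed to under 1 CPM in every library, and PPO1, vas and nos were not found. The part of such shifts in the lncRNA results was not tested, and fewer cells of a type cannot be told apart from less RNA per cell in these bulk samples.

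By position in the annotation, 75 members were intergenic, 38 were antisense to a protein-coding gene, 19 overlapped one on their own strand, 8 were miRNA hosts and 1 was a snoRNA host. Chromosome arm 3L held 36, X 30, 3R 28, 2L 22, 2R 22 and chromosome 4 held 3. The median exonic length was 901 bases, against 601 bases for the 1653 lncRNAs below the threshold and 2152 bases for the protein-coding genes above it. Per kilobase of exon the median level over the 18 libraries was 2.80 CPM, against 21.7 CPM for the protein-coding genes. A single exon block made up 71 of the 141. Exon bases were shared with another counted gene on the same strand by 22 members and on the opposite strand by 21, and 100 members shared none. The counts of members that share bases are uncertain, since the settings for strand and overlap were not given in the sources used here.

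Counts were very unequally spread. CR42862 (FBgn0262109, BDGP6, 3L:224106-230964, plus strand), which shares 246 exon bases with the protein-coding gene CG33229 on its own strand, averaged 1772 CPM and alone gave 52.1% of all member counts. The top 5 members, which also included CR32368, the miRNA host CR43459, CR45334 and CR46064, gave 75.5% and the top 10 gave 81.5%. Ranked per kilobase of exon, the short CR32368 (410 bases) led at 737 CPM per kilobase, ahead of CR42862 at 323 and CR45334 at 124 CPM per kilobase. At the other end, 26 members averaged below 1 CPM over the 18 libraries. Nearest to the threshold from above were CR44758, CR44024 and CR45681, with top group means of 1.00, 1.01 and 1.06 CPM, and nearest from below were CR45176, CR45641 and noe, at 0.990, 0.981 and 0.972 CPM.

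**Figure D1:**
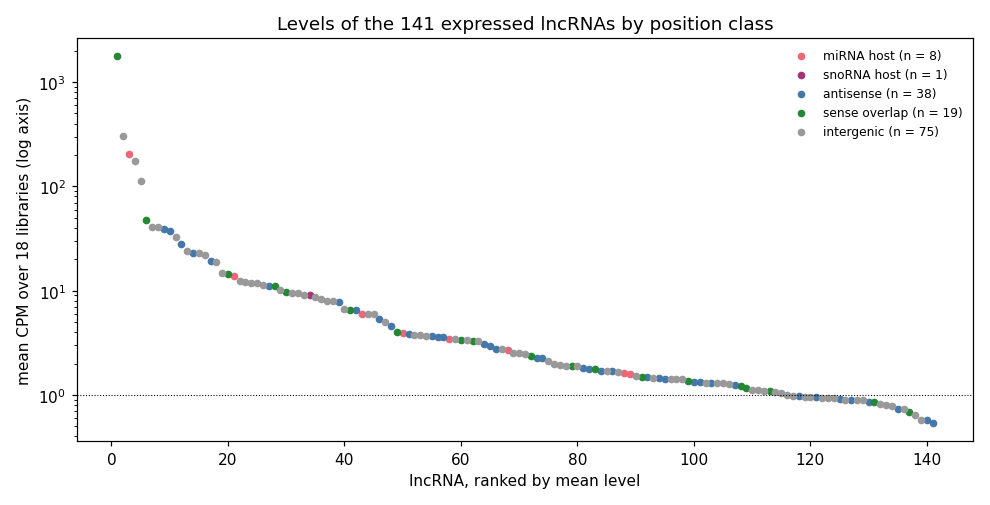
Mean CPM over the 18 libraries (log axis, not divided by length) of the 141 expressed lncRNAs, ranked from high to low and coloured by position class; the dotted line is at 1 CPM. Only 5 members lie above 100 CPM, and 26 lie below the line because they reached 1 CPM in some groups only.

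More lncRNA genes were detected in Nito than in any other group. Members at 1 CPM or more by group mean, the values that chose them, numbered 115 in Ime4_dMettl14, 116 in Fl2d, 112 in Vir, 126 in Nito, 109 in CG7358 and 109 in Control. Of the 109 at 1 CPM or more in Control, 57 (52.3%) had their highest mean in Nito, as did 2381 of 7023 protein-coding genes (33.9%) at that level in Control. Between 487 and 511 lncRNA genes had at least 1 count in a Nito library and 400 to 457 in a library of the other 4 knockdowns, against 423 to 439 in Control. Members together took 0.406% to 0.415% of the counts in Nito, 0.269% to 0.292% in CG7358 and 0.336% to 0.346% in Control. Without CR42862 their sum was 1856 ± 42.5 CPM in Nito, 1573 ± 34.2 CPM in CG7358 and 1556 ± 44.4 CPM in Control (SD, n = 3 each), and the CG7358 sum then lay within the range of the other groups. All 6 groups reached 1 CPM for 96 members, and 16 reached it in 1 group alone, 11 of these in Nito, which says nothing beyond the rule. A member kept through 1 group was bound to be high there. Counts are therefore also given for the 109 members at 1 CPM or more in Control, whose place did not depend on any knockdown.

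Each knockdown was compared with Control by edgeR's quasi-likelihood test, fitted to all 8146 genes that passed the filter on low counts, and a gene was called at a Benjamini-Hochberg adjusted p under 0.05 over all of them. All 141 members were among the genes tested, and 100 differed among the 6 groups (F test), against 76.9% of all genes tested. In Ime4_dMettl14, 0 members were called higher and 2 lower, where 5.63% of all genes were called, 3.01% higher and 2.63% lower. In that comparison 18 of the 141 members had an unadjusted p under 0.05, against 1492 of the 8146 genes tested, and DESeq2 called 1 member. In Fl2d 27 were higher and 12 lower, where 32% of all genes were called, 16% in each direction. In Vir 27 were higher and 14 lower, where 34% of all genes were called, 16.7% higher and 17.3% lower. The total of 41 in Vir fell to 25 without Control replicate 2 and to 27 without Vir replicate 3. In CG7358 22 were higher and 11 lower, where 37.6% of all genes were called, 18.8% in each direction. In Nito 64 were higher and 22 lower, where 60.7% of all genes were called, 29.8% higher and 30.9% lower.

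The members' excess of higher over lower calls in Nito was not seen over all genes. Fl2d (27 and 12), Vir (27 and 14) and CG7358 (22 and 11) also had more members called higher than lower. Members called higher in Nito were 45.4% of the 141 and those called lower 15.6%, with a median log2 fold change of 0.31 against 0.00 over all genes tested. Among the 109 members at 1 CPM or more in Control, whose place did not depend on Nito, 47 were higher and 22 lower. Among the 100 that shared no exon bases, 41 were higher and 18 lower, a count that leaves in any member let in by Nito alone. Protein-coding genes of similar level also had more higher than lower calls. Of the 1124 protein-coding genes averaging 1 to 10 CPM, 341 were higher in Nito and 252 lower (30.3% and 22.4%). Of the 86 members in the same range, 36 were higher and 13 lower (41.9% and 15.1%). The range was set on means over all 18 libraries, Nito included. The 86 therefore still include members let in by Nito alone, such as CR43651 below. Calls beyond a 2-fold difference numbered 20 higher and 3 lower for the 109 members at 1 CPM or more in Control. They numbered 337 higher and 219 lower for all 8146 genes tested. At 1 to 10 CPM such calls numbered 109 higher and 70 lower for the 1124 protein-coding genes. For the 86 members in that range they numbered 21 higher and 3 lower. Over all 141 members they numbered 35 higher and 3 lower, a count that includes those let in by Nito alone. These are descriptions, with no test of the list.

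**Figure D2:**
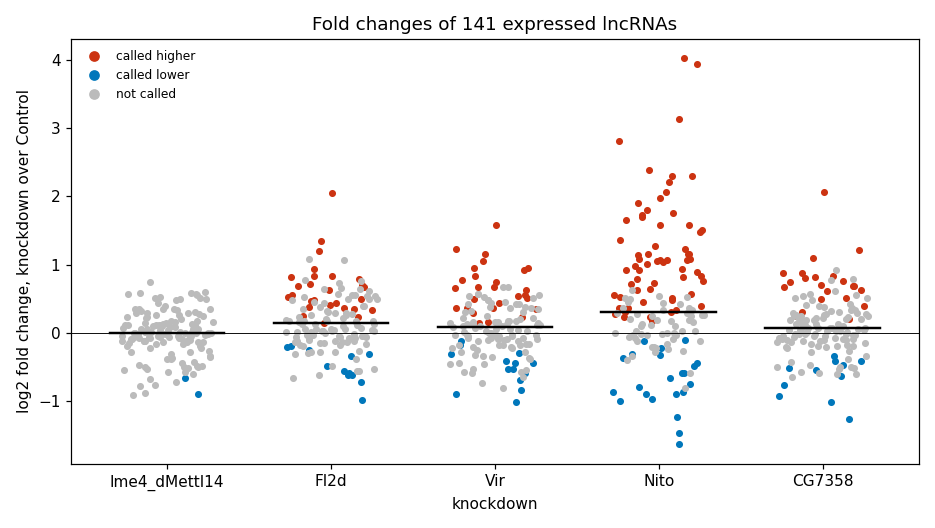
Log2 fold change over Control of each of the 141 lncRNAs (points, spread sideways at random) in the 5 knockdowns, coloured by the edgeR call; black bars are medians. Nito has 64 called higher and 22 called lower and a median of 0.31, and Ime4_dMettl14 has 0 called higher and 2 called lower.

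Nito was also set against the mean of Fl2d, Vir and CG7358, a comparison that does not use the Control libraries. Here 62 members were higher and 20 lower in Nito, where 62.6% of all genes were called, 30.9% higher and 31.8% lower. These counts leave in members let in by Nito alone, which were bound to be higher there. Among the 109 members at 1 CPM or more in Control, 45 were higher and 19 lower. In the same way Ime4_dMettl14 had 13 members higher and 28 lower than that mean, where 34.3% of all genes were called, 17.1% higher and 17.2% lower. Among the same 109 members, 11 were higher and 27 lower.

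The miRNA hosts included the member with the highest fold change in Nito. In total 31 lncRNA genes contain an annotated miRNA on their own strand, 19 of them had counts, and 8 were members, each with its hairpin inside an exon. Of these, CR43651 entered through Nito alone. Of the other 7, 6 were called higher in Nito than in Control and 0 lower, where 29.8% of all genes were called higher. The other 11 with counts had 1 to 5 counts each over all 18 libraries, too few to test. All annotated hairpins of these genes were themselves listed at 0 counts, so the values below are those of the host transcript and say nothing of the mature miRNA.

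CR43626 (FBgn0263617, 3L:3249340-3254504, plus strand), the host of mir-282, had 28.1, 27.3 and 26.8 CPM in Nito, against 1.71, 1.27 and 2.12 CPM in Control. The other 12 knockdown libraries lay within 0.826 to 2.34 CPM, so all 3 Nito libraries stood more than 10-fold above every other library. In summed counts this was 1417 in Nito and 85 in Control, and the log2 fold change was 4.02 ± 0.13 SE (edgeR adjusted p = 9.20e-23). CR43651 (FBgn0263660, 2R:9552844-9553940, plus strand) carries mir-14, a miRNA known in flies for limiting cell death and for fat metabolism. It had 6.44, 7.48 and 6.30 CPM in Nito, against 0.295, 0.579 and 0.436 CPM in Control, and no library outside Nito exceeded 0.983 CPM. Summed counts were 349 in Nito and 22 in Control, and the log2 fold change was 3.93 ± 0.24 SE. Since CR43651 reached 1 CPM in Nito only, its high level there is a description with no test.

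CR43650 (FBgn0263659, 2R:16829095-16839494, plus strand), the host of the growth regulator mir-8, had 3.97, 3.65 and 4.20 CPM in Nito, against 0.768, 0.753 and 1.06 CPM in Control (log2 fold change 2.21 ± 0.23 SE, edgeR adjusted p = 1.02e-09). The Nito libraries did not overlap any other library, of which the highest was at 1.94 CPM. CR43650 was also called higher in CG7358 (0.84, edgeR adjusted p = 0.0217). That call was lost without Control replicate 1, without Control replicate 2 and without CG7358 replicate 3. CR31044 (FBgn0051044, 3R:29214562-29219667, plus strand), which carries mir-279 and mir-996, differed in more knockdowns. It had 25.3, 25.9 and 27.5 CPM in Nito, against 7.92, 8.46 and 8.79 CPM in Control (1.66 ± 0.09 SE, edgeR adjusted p = 5.00e-17). Its log2 fold change over the same Control libraries was 0.69 in Fl2d, 0.77 in Vir and 0.74 in CG7358, each called, and 0.01 in Ime4_dMettl14 (edgeR adjusted p = 0.980). CR31044 was higher in Nito than in the mean of Fl2d, Vir and CG7358 by 0.92 ± 0.06 SE (edgeR adjusted p = 2.10e-14).

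CR43857 (FBgn0264439, 2L:7423820-7425932, plus strand), with mir-275, had 6.51, 5.60 and 5.86 CPM in Nito, against 2.66, 2.26 and 2.56 CPM in Control (log2 fold change 1.27 ± 0.16 SE, edgeR adjusted p = 5.93e-08). CR44206 (FBgn0265104, 2R:13329352-13344808, minus strand), with mir-184, a miRNA needed in the female germline, had 5.45, 5.08 and 5.30 CPM in Nito, against 3.43, 2.67 and 4.67 CPM in Control (0.58 ± 0.15 SE, edgeR adjusted p = 0.00163). The most abundant host, CR43459 (FBgn0263413, 3R:10093761-10101356, plus strand), carries mir-277 and also mir-34, a miRNA known for a role in ageing flies. It had 267, 237 and 263 CPM in Nito, against 206, 187 and 207 CPM in Control, a smaller difference (0.37 ± 0.07 SE, edgeR adjusted p = 0.000387). In all 3 of these hosts the Nito libraries were above the Control libraries.

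CR46006 (FBgn0267668, 3L:10323501-10367450, plus strand), which spans mir-276a, was the host not called in Nito. It had 1.80, 2.06 and 2.65 CPM in Nito, against 1.65, 2.14 and 2.24 CPM in Control (log2 fold change 0.13 ± 0.26 SE, edgeR adjusted p = 0.683). It was higher in Fl2d, with 3.76, 4.62 and 2.86 CPM (0.94 ± 0.23 SE, edgeR adjusted p = 0.00266), and in CG7358, with 3.34, 2.92 and 3.88 CPM (0.80 ± 0.24 SE, edgeR adjusted p = 0.00857, and 0.0504 without Control replicate 1). Set against the mean of Fl2d, Vir and CG7358, CR46006 was lower in Nito by 0.64 on the log2 scale ± 0.19 SE (edgeR adjusted p = 0.00516), while the other 6 hosts that did not enter through Nito alone were higher.

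**Figure D3:**
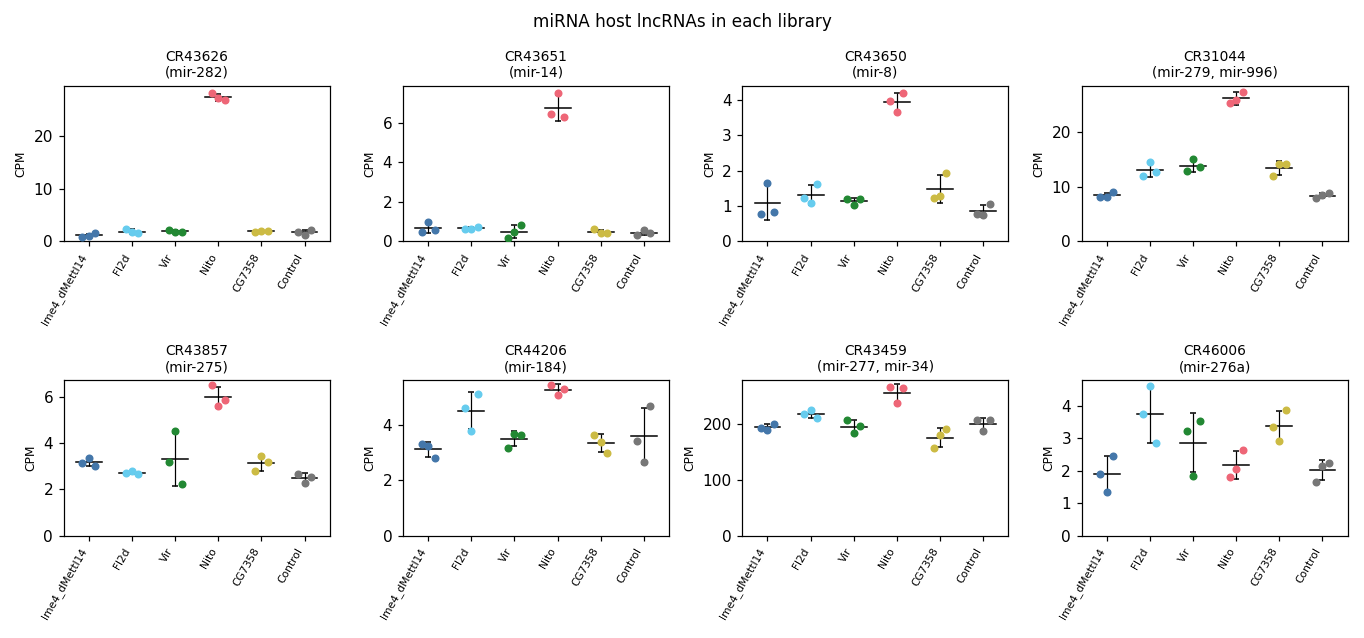
CPM (linear axes from 0) of the 8 miRNA host lncRNAs in each library (points), by group, with the mean (bar) and SD (whisker) of 3 libraries; the miRNAs they carry are in brackets. The 3 Nito libraries stand above all others in the panels of CR43626, CR43651, CR43650, CR31044, CR43857 and CR43459, and within the range of the others for CR46006.

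Of the genes that process these hosts, looked up after the hosts' values were known, pasha was at 67.9, 66.7 and 67.4 CPM in Nito, against 25.8, 26.7 and 29.0 CPM in Control. Its log2 fold change was 1.32 ± 0.05 SE (edgeR adjusted p = 1.31e-19), and the other 12 libraries lay near the Control level, with group means of 25.8 to 26.7 CPM. The nuclease drosha averaged 56.6 CPM in Nito and 58.0 CPM in Control (log2 fold change −0.02, edgeR adjusted p = 0.727). Dcr-1, which acts on the cut hairpin in the cytoplasm, differed by 0.12 (edgeR adjusted p = 0.00410). The part of pasha in the hosts' levels was not tested.

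The 38 antisense members included 18 called higher and 4 called lower in Nito, where 29.8% of all genes were called higher and 30.9% lower. Class counts in Nito leave in any member let in by Nito alone, which was bound to be high there. CR45217 (FBgn0266744, 3R:24229898-24231364, minus strand), which overlaps exons of mask on the other strand and shares 78 exon bases with Spase22-23 on its own, had 6.32, 6.34 and 6.19 CPM in Nito, against 0.709, 0.753 and 0.686 CPM in Control. No library outside Nito exceeded 1.18 CPM, and the log2 fold change was 3.13 ± 0.18 SE (edgeR adjusted p = 1.14e-15). CR44092, on the strand of mask and with 179 bases in common with CR45217, had 1.55, 1.94 and 1.55 CPM in Nito, against 1.24, 1.10 and 1.18 CPM in Control, and was not called (edgeR adjusted p = 0.0637). In Nito mask was lower by 0.34 on the log2 scale, and Spase22-23 was not called (−0.06).

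CR30055 (FBgn0050055, 2R:12589239-12591395, plus strand), antisense to Sin3A, a corepressor scaffold, and sharing no exon bases with it, had 47.1, 44.1 and 44.1 CPM in Nito, against 18.6, 13.8 and 16.6 CPM in Control. The highest of the other libraries reached 21.1 CPM, and the log2 fold change was 1.48 ± 0.07 SE (edgeR adjusted p = 1.18e-17). Sin3A itself differed by 0.16. CR30055 was also called higher in Fl2d (0.34), Vir (0.35) and CG7358 (0.39). CR44331, antisense to the JNK phosphatase gene puc, had a log2 fold change of 1.91 ± 0.17 SE in Nito (edgeR adjusted p = 3.88e-11), and CR44218, antisense to the chromatin remodeller gene kis, one of 2.29 ± 0.18 SE (edgeR adjusted p = 1.81e-12). CR32385, antisense to Galphai, a G protein subunit gene, rose by 1.59 in Nito while Galphai was lower by 0.39. CR44331 and CR32385 were also called higher in Fl2d (0.72 and 0.50), Vir (0.95 and 0.55) and CG7358 (0.88 and 0.69). CR44218 was also called higher in Fl2d (0.67) and Vir (0.95), and not in CG7358.

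CR44417 (FBgn0265590, 2R:17869027-17869857, plus strand), antisense to Mapmodulin, had the lowest fold change of any member in Nito. It had 2.79, 3.03 and 4.20 CPM in Nito, against 11.3, 9.73 and 10.5 CPM in Control, and every other library was at 6.62 CPM or more. The log2 fold change was −1.63 ± 0.13 SE (edgeR adjusted p = 1.49e-12), and Mapmodulin was higher in Nito by 0.36. CR44417 was also called lower in Fl2d (−0.34), Vir (−0.44) and CG7358 (−0.46). CR45973 (FBgn0267635, 3L:20404270-20407558, plus strand) had 24.2, 23.0 and 25.9 CPM in Nito, against 43.4, 39.2 and 45.5 CPM in Control (−0.80 ± 0.06 SE, edgeR adjusted p = 4.90e-13). In the other knockdowns CR45973 was not called, with log2 fold changes of −0.11 to 0.07.

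CR44779 (FBgn0266005, X:1047242-1088866, plus strand), antisense to CG3655 with 94 shared exon bases, went opposite ways in different knockdowns. It had 48.9, 47.3 and 52.9 CPM in Nito and 19.3, 20.5 and 23.1 CPM in CG7358, against 44.1, 39.6 and 39.8 CPM in Control. The log2 fold change was 0.28 ± 0.06 SE in Nito (edgeR adjusted p = 0.000241) and −0.91 ± 0.07 SE in CG7358 (edgeR adjusted p = 1.42e-11). The levels did not overlap between the 3 groups, and Nito exceeded the mean of Fl2d, Vir and CG7358 by 0.76 ± 0.05 SE (edgeR adjusted p = 1.06e-13).

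Among the 19 members that overlap a protein-coding gene on their own strand, 10 were higher and 3 lower in Nito, where 29.8% of all genes were called higher and 30.9% lower. Any member let in by Nito alone is left in this count too. In Fl2d 8 were higher and 1 lower, where 16% of all genes were called in each direction. The dominant CR42862 had 2257, 2248 and 2294 CPM in Nito and 1155, 1281 and 1321 CPM in CG7358, against 1909, 1843 and 1810 CPM in Control. It was called higher in Nito (log2 fold change 0.30 ± 0.04 SE, edgeR adjusted p = 6.14e-07) and lower in CG7358 (−0.51 ± 0.04 SE, edgeR adjusted p = 4.64e-10), and these 3 groups did not overlap. CG33229, with which it shares bases, was higher in CG7358 by 0.29 and not called in Nito (0.01).

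CR43963 (FBgn0264678, X:12717624-12730953, minus strand), which overlaps Smr, a nuclear receptor corepressor gene, and shares 20 exon bases with it, was the member with the largest rise in Fl2d, Vir and CG7358. It had 15.3, 18 and 14 CPM in Fl2d, 13.3, 8.57 and 12 CPM in Vir, 15.1, 14.6 and 16 CPM in Nito and 16.6, 16.7 and 13.9 CPM in CG7358, against 3.07, 3.65 and 5.05 CPM in Control. In Ime4_dMettl14 it had 3.90, 4.24 and 4.65 CPM, within the range of Control. Over the same 3 Control libraries the log2 fold change was 2.06 ± 0.17 SE in Fl2d, 1.59 ± 0.18 SE in Vir, 1.98 ± 0.17 SE in Nito and 2.07 ± 0.17 SE in CG7358. The direct comparison put CR43963 lower in Ime4_dMettl14 than in the mean of Fl2d, Vir and CG7358 by 1.77 on the log2 scale ± 0.15 SE (edgeR adjusted p = 2.95e-08), and Nito did not differ from that mean by the test (0.07 ± 0.11 SE, edgeR adjusted p = 0.589). Smr was higher by 1.03 in Fl2d, 1.04 in Nito and 0.86 in CG7358, and was not called in Vir (0.48, edgeR adjusted p = 0.118). CR45994, which overlaps lbk, likewise was lower in Ime4_dMettl14 than in the mean of Fl2d, Vir and CG7358 (−1.31 ± 0.22 SE, edgeR adjusted p = 4.24e-05).

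Of the 75 intergenic members, 29 were higher and 15 lower in Nito, against 29.8% and 30.9% of all genes. Members let in by Nito alone, such as CR46015 below, are left in this count. CR44953 (FBgn0266258, 3R:29755190-29759040, minus strand), 662 bases from yata, had 9.54, 9.24 and 8.23 CPM in Fl2d, 7.23, 8.13 and 8.5 CPM in Vir, 37.7, 35.5 and 36.1 CPM in Nito and 9.30, 8.18 and 10.2 CPM in CG7358, against 6.26, 4.29 and 5.17 CPM in Control. All 12 of these knockdown libraries were above the Control libraries, and the 3 of Nito were far above the rest. The log2 fold change over Control was 2.81 ± 0.09 SE in Nito (edgeR adjusted p = 5.29e-22), 0.83 in Fl2d, 0.65 in Vir and 0.87 in CG7358, all called, and Nito exceeded the mean of these 3 by 2.03 ± 0.06 SE (edgeR adjusted p = 9.55e-23). The neighbour yata was not called in these knockdowns, with −0.06 to 0.03. CR45054, 3235 bases upstream of the host CR43459 on the same strand, had 7.31, 6.62 and 7.46 CPM in Nito, against 1.36, 1.16 and 1.62 CPM in Control (2.38 ± 0.21 SE, edgeR adjusted p = 1.72e-10). CR45054 was also called higher in Fl2d, Vir and CG7358. CR46015, 872 bases from the glutathione transferase gene GstD2 and let in by Nito alone, had 2.42, 2.46 and 2.60 CPM in Nito, against 0.650, 0.579 and 0.561 CPM in Control. GstD2 rose by 1.74 in Nito on the log2 scale (edgeR adjusted p = 6.47e-06). The αγ-element transcript CR32865, from the locus with Hsp70 genes, had 4.15, 4.85 and 5.08 CPM in Nito, against 1.77, 1.97 and 3.05 CPM in Control (1.08 ± 0.19 SE, edgeR adjusted p = 1.04e-05).

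CR44526 (FBgn0265719, 3L:8692703-8693191, plus strand) also went both ways. It had 15.5, 14.5 and 14 CPM in Nito and 6.58 to 7.84 CPM in the 9 libraries of Fl2d, Vir and CG7358, against 10.4, 8.92 and 11.8 CPM in Control. Nito was thus above Control and the other 3 below it, with log2 fold changes of 0.52 ± 0.09 SE in Nito, −0.55 in Fl2d, −0.53 in Vir and −0.41 in CG7358, all called by edgeR. Its nearest coding gene, hry, lay 13450 bases away on the same strand and was lower in Nito by 0.87.

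CR45517 (FBgn0267073, X:5428483-5429256, plus strand) was called lower in each of the 5 knockdowns, which share the same Control libraries, as 1.73% of all genes tested were in 1 direction or the other. It had 4.13, 3.19 and 3.19 CPM in Ime4_dMettl14, 3.26, 3.80 and 3.58 CPM in Fl2d, 3.74, 3.56 and 3.77 CPM in Vir, 2.42, 2.17 and 2.38 CPM in Nito and 3.04, 3.21 and 4.0 CPM in CG7358, against 5.97, 5.10 and 5.49 CPM in Control. All 3 Control libraries were above all 15 others. The log2 fold change was −0.65 ± 0.14 SE in Ime4_dMettl14 (edgeR adjusted p = 0.00279), −0.59 in Fl2d, −0.53 in Vir, −1.23 ± 0.15 SE in Nito (edgeR adjusted p = 1.57e-08) and −0.63 in CG7358. The comparison without Control placed Nito 0.65 below the mean of Fl2d, Vir and CG7358 (log2 fold change −0.65 ± 0.13 SE, edgeR adjusted p = 9.51e-05) and did not call Ime4_dMettl14 (−0.07 ± 0.12 SE, edgeR adjusted p = 0.712).

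The other member called in Ime4_dMettl14 was CR44920, with 1.83, 1.84 and 1.79 CPM in Ime4_dMettl14, against 3.55, 3.59 and 2.99 CPM in Control (log2 fold change −0.89 ± 0.19 SE, edgeR adjusted p = 0.00350). Over the same Control libraries CR44920 was called lower in Fl2d (−0.72) and in Vir (−0.59, edgeR adjusted p = 0.0125). The Vir call was lost without Control replicate 2 (adjusted p = 0.0509) and without Vir replicate 3 (adjusted p = 0.128). It was not called in Nito (0.20) or in CG7358 (−0.03). CR43337 (FBgn0263042, 3L:620695-622316, minus strand) had 2.60, 2.11 and 2.93 CPM in Nito, against 7.68, 7.47 and 6.17 CPM in Control (−1.47 ± 0.19 SE, edgeR adjusted p = 5.42e-07), and was lower in Fl2d and Vir as well. CR43423, 15169 bases from it on the same strand, was higher in Nito by 1.14 ± 0.11 SE (edgeR adjusted p = 1.39e-10). CR43423 was also called higher in Fl2d (0.46), Vir (0.50) and CG7358 (0.31). flam, the flamenco transcript whose piRNAs silence transposons in ovarian follicle cells, had 0.805, 1.14 and 0.939 CPM in Nito, against 1.95, 1.91 and 1.56 CPM in Control (−0.89 ± 0.23 SE, edgeR adjusted p = 0.00163). The snoRNA host CR42491, which shares 377 exon bases with the ribosomal protein gene RpL22, was called in no knockdown, with log2 fold changes of −0.20 to 0.17.

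**Figure D4:**
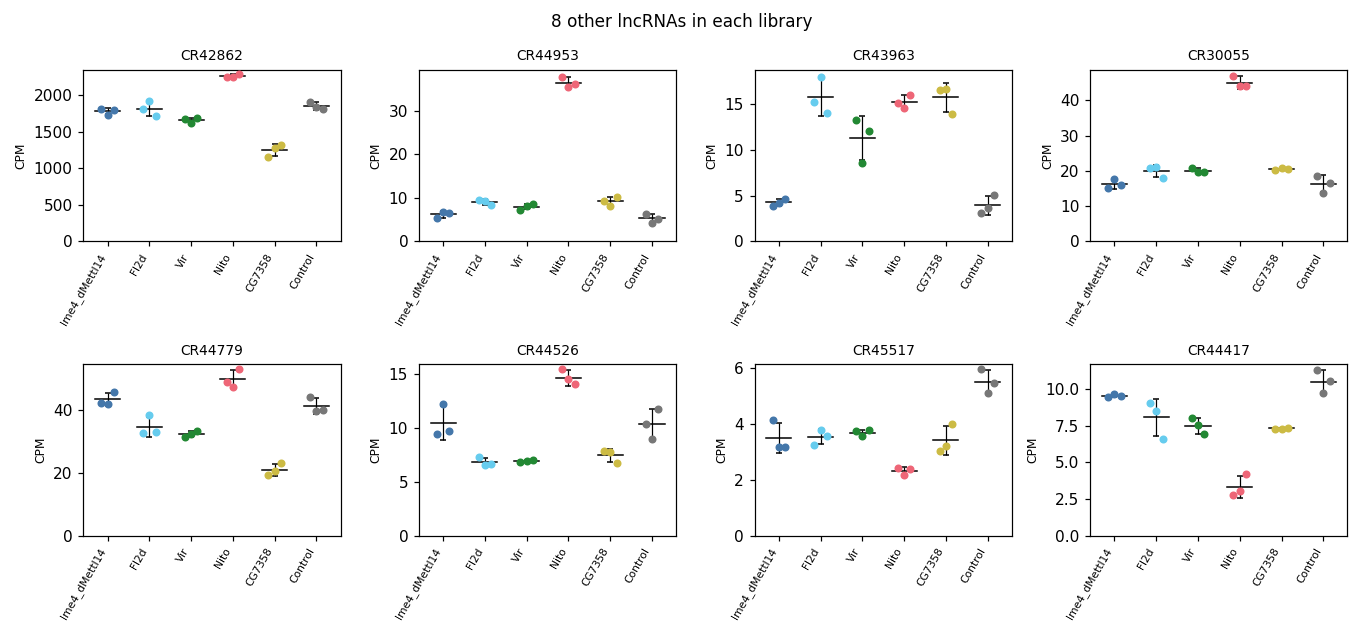
CPM (linear axes from 0) of 8 lncRNAs that are no miRNA hosts in each library (points), by group, with the mean (bar) and SD (whisker) of 3 libraries. CR44953 and CR30055 are highest in Nito, CR43963 is high in Fl2d, Vir, Nito and CG7358, CR42862 and CR44779 are lowest in CG7358, and CR45517 is highest in Control.

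A few members varied within groups. Of 452 group values at a mean of 2 CPM or more, 13 had a highest library more than 2-fold above the lowest, in 7 members. CR45102 gave 5 of the 13: it had 8.56, 32.3 and 10.7 CPM in Fl2d and 9.97, 2.35 and 4.49 CPM in Vir, against 5.50, 10.3 and 9.23 CPM in Control. It was called in no knockdown, and its groups overlapped.

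Fold changes of members were set beside those of the protein-coding gene that overlaps or lies nearest. This gene was tested for 121 members. Of 55 such members higher in Nito, the coding gene was higher for 28, lower for 11 and not called for the rest. Of 20 lower in Nito, it was lower for 9 and higher for 6. Of all protein-coding genes tested, 29.7% were higher and 32.0% lower in Nito. Across the 121, the log2 fold changes in Nito had a Pearson r of 0.25, a description in which both values share their libraries and neighbours share a locus. Among members that overlap a coding gene on their own strand, that gene was higher for 7 of 8 higher members in Fl2d, 1 of 5 in Vir, 6 of 10 in Nito and 1 of 1 in CG7358, and was lower for 1 of the 10 in Nito.

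**Figure D5:**
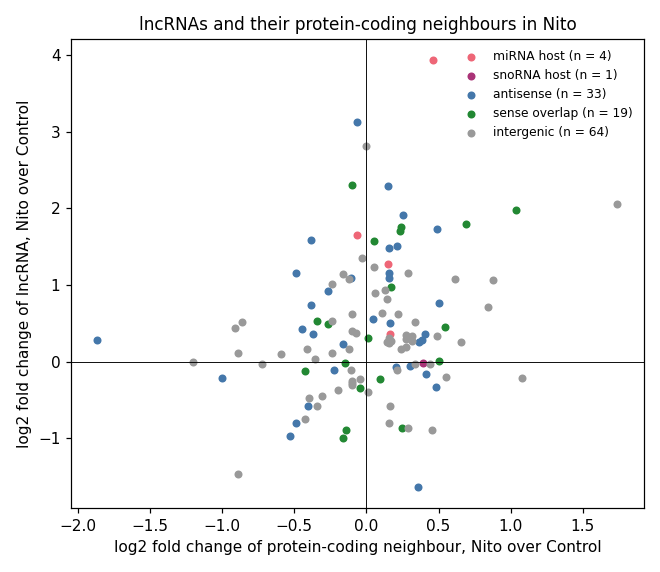
Log2 fold change in Nito over Control of 121 lncRNAs (vertical) against that of the overlapping or nearest protein-coding gene (horizontal), coloured by position class. Points lie in all 4 quadrants, with r of 0.25, and the 3 lncRNAs highest on the vertical axis, CR43651, CR45217 and CR44953, have neighbours at 0.46, −0.06 and −0.00.

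Machinery that makes or removes noncoding RNA was read from the same fit, in which all genes were called higher and lower at 16% and 16% in Fl2d, 16.7% and 17.3% in Vir, 29.8% and 30.9% in Nito and 18.8% and 18.8% in CG7358. The list for the RNA exosome and nuclear surveillance, which degrade unstable nuclear RNAs, also holds the cap-binding genes Cbp80 and Cbp20, Ars2 and Pabp2. Of 21 genes listed, 18 were found, with 4 higher and 0 lower in Fl2d, 9 and 0 in Vir and 4 and 0 in CG7358. In Nito 2 were higher (Cbp80 by 0.31 and Rrp45 by 0.135) and 7 lower. Differences within this list were small: Rrp6, an exosome nuclease, averaged 55.8 CPM in Nito and 65.5 CPM in Control (−0.22, edgeR adjusted p = 3.85e-05). The list for nonsense-mediated decay, of which 8 of 13 genes were found, also holds pcm and twin, genes of general RNA decay. Of its 8 genes, 3 were higher and 2 lower in Fl2d, 3 and 1 in Vir and 2 and 2 in CG7358. In Nito 7 were higher, pcm and twin among them, and 0 lower. In Nito pcm, the cytoplasmic 5′ to 3′ exonuclease, averaged 167 CPM, against 120 CPM in Control (0.49, edgeR adjusted p = 1.14e-11).

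Of 13 Integrator genes, whose complex ends unproductive transcripts, 0 were higher and 7 lower in Fl2d, 0 and 3 in Vir, 2 and 4 in Nito and 0 and 3 in CG7358. Of 7 core snoRNP genes, 5 were higher and 0 lower in Fl2d, 6 and 0 in Vir, 0 and 4 in Nito and 4 and 0 in CG7358. Of 9 m6A writer and reader genes, which include the targets, 1 was higher and 2 lower in Fl2d, 2 and 1 in Vir, 6 and 1 in Nito and 1 and 1 in CG7358. In Ime4_dMettl14, where 3.01% of all genes were called higher and 2.63% lower, 1 snoRNP gene was higher, 1 m6A gene was higher and 2 were lower, and 0 of the other lists were called. The part of these genes in the lncRNA levels was not tested.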

How the data were processed

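Directional libraries of polyadenylated RNA were sequenced, per the labels' protocols. The deposited tables hold raw counts of reads per gene, keyed by FlyBase ID. The build BDGP6, the aligner STAR 2.5.1b and the counter featureCounts 1.5.1 come from the submitters' processing notes. No source used here gives the annotation release, or how strand, multiple mapping and gene overlap were handled. Symbols, positions and exons came from the Ensembl annotation of that assembly, which held 17253 of the 17559 IDs; the other 306 held 4.83% of all counts and could not be read as lncRNAs.

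Groups came from the treatment label. CPM printed are scaled to the library's total count. The tests on counts used edgeR 4.0.16 under R 4.3.3 (filterByExpr, TMM scaling, robust quasi-likelihood, 18 libraries, 1 coefficient per group), so fold changes are TMM-scaled and can differ slightly from ratios of CPM. P-values were adjusted over 8146 genes within a contrast. The SE is the size of the log2 fold change divided by the root of F. The common biological coefficient of variation was 0.0432. Libraries of a group differed by more than sampling noise (chi-square per degree of freedom 2.33 to 15.7), so none was merged. The test was checked on simulated counts. Alternatives were size factors of the DESeq2 type, DESeq2 1.42.0, other filters, a replicate block, only the groups compared, other membership rules and each library left out.

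The members, gene lists and tests were chosen with earlier results of these data known. Named members are the 10 most abundant, the 6 highest and 6 lowest called members of each comparison whose libraries did not overlap and whose average log2 CPM was not below 0, those called alike in all 5 knockdowns, miRNA and snoRNA hosts, those nearest the threshold and coding neighbours; not all are given. Outside this rule, chosen after their values were seen, are CR30055, CR32385, CR43423, CR32865, CR45102, CR44092 and their coding neighbours, and pasha, drosha and Dcr-1. No sequences are shown.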

Additional observations from a re-analysis of the deposited data

How the results depend on the processing

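Counts of called members in the knockdowns, in the F test and in both direct comparisons stayed within 1.5 times the reported count under every alternative run, except as follows. For Ime4_dMettl14, where 2 were called, DESeq2 called 1 and the test without a filter called 5. For Vir, where 41 were called, leaving out 1 library gave 25 to 40. No pairing of libraries by replicate number was assumed. Across groups, the deviations of same-numbered libraries correlated at −0.09 to 0.17, and those of differently numbered libraries at −0.13 to 0.12. Of 18 libraries, 9 correlated best with their own number, which does not settle whether the numbers pair them. With the replicate block, 2 members were called in Ime4_dMettl14, 38 in Fl2d, 40 in Vir, 85 in Nito and 33 in CG7358. For named members, 1787 alternative fold changes were computed: 1713 kept their call or lack of one, 65 lost the call, 9 gained it and 0 reversed. A reversal was counted only where the main or the alternative fit called the member. The 1713 can therefore hold changes of sign between values that were not called. Depth limits the low members most, such as CR43651 with 22 counts over the 3 Control libraries.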
